A study of Homo sapiens with 18 samples.

Results

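Gene expression in A549, an established line of human lung adenocarcinoma cells, was compared between a stable MagoHB knockdown (KD) and wild-type (WT) cells. The comparison took the 3 MagoHB KD libraries and the 3 WT libraries, all untreated, out of 18 libraries in the series. The 3 untreated libraries of a stable S100A16 KD and the 3 of a stable hnRNPM KD were used for direct contrasts with the MagoHB KD. The other libraries, WT and S100A16 KD cells given 100 µM hydrogen peroxide (H2O2) for 2 h, entered only the shared estimate of the spread. The libraries of a group are biological replicates per the series' design text. WT cells were the controls, with no vector-only line among them. Neither the knockdown method nor the number of clones is given in the sources used here, so an effect of making a stable line and an effect of the knockdown cannot be told apart.

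MAGOHB encodes a core subunit of the exon junction complex, which the spliceosome leaves on mRNA just upstream of exon-exon junctions. In that core a MAGO protein pairs with RBM8A (Y14) and locks the helicase EIF4A3 on the RNA, and CASC3 joins them. The complex takes part in splicing, mRNA export, translation and nonsense-mediated decay, the pathway that destroys mRNAs with a premature stop codon. MAGOHB has a close paralog, MAGOH, that encodes a nearly identical protein.

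The coding sequences of the pair are alike, so the split of reads between them is uncertain. MAGOHB has 447 coding bases (GENCODE 29 transcript MAGOHB-201) and MAGOH has 441 (MAGOH-202), and 381 of 441 aligned positions were identical (86.4%), with a longest identical run of 38 bases. The last 90 coding bases are given for both, with the 13 bases that differ in capitals.
MAGOHB: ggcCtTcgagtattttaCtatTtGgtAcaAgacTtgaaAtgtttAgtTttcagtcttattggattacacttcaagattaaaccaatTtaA
MAGOH: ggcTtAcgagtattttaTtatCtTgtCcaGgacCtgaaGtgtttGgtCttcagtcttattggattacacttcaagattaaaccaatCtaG

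MAGOHB mRNA (GRCh38 chromosome 12, 10604190 to 10613623, minus strand) was at 61.6, 37.8 and 57 CPM (counts scaled to library size, with TMM factors) in MagoHB KD libraries 1, 2 and 3. It was at 147, 156 and 146 CPM in the WT libraries. Every KD library lay below every WT library, and MagoHB KD 2 was the lowest. The mean fell to 34.8% of WT (52.1 ± 13 CPM in the KD, 150 ± 5.3 CPM in WT, SD, n = 3 each), a log2 fold change of -1.52 ± 0.14 (SE, adjusted p = 3.08e-07, edgeR quasi-likelihood test).

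MAGOH (chromosome 1, 53226892 to 53238610) was at 50.9, 41.6 and 49.6 CPM in the KD and at 49, 55.4 and 50.9 CPM in WT, so the groups overlapped. Its log2 change of -0.13 did not pass the test (adjusted p = 0.216; alternatives from 0.0918 to 0.691) and was 0.08 with total counts alone as scaling (adjusted p = 0.407). Per length, the mean deposited RPKM (reads scaled by exon length and library total) of MAGOHB was 11.3 in the KD and 28.2 in WT, and that of MAGOH was 34.1 in the KD and 32.4 in WT. On that scale MAGOH was the more abundant of the pair in both groups.

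The other core genes moved less than MAGOHB. RBM8A was at 231, 195 and 229 CPM in the KD and at 290, 296 and 286 CPM in WT, with no overlap, and fell by 0.41 on the log2 scale (adjusted p = 5.12e-05). EIF4A3 was at 135, 97.1 and 129 CPM in the KD and at 153, 145 and 158 CPM in WT. It fell by 0.34 (adjusted p = 0.0175, alternatives from 1.53e-05 to 0.265). In the fit of all libraries but MagoHB KD 2 the change was -0.20 and was not called (adjusted p = 0.0778). The other KD libraries still lay below every WT library. CASC3 rose to 428, 434 and 441 CPM in the KD, against 356, 383 and 362 CPM in WT (log2 0.24, adjusted p = 0.00272).

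**Figure D1:**
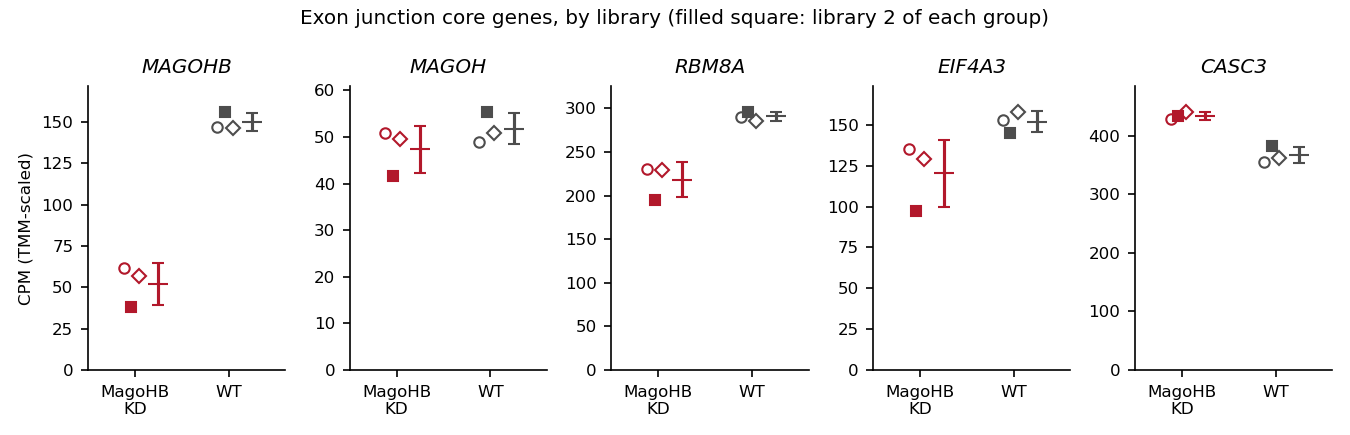
CPM (TMM-scaled) of the 5 exon junction core genes in each MagoHB KD library (red) and WT library (grey), with the group mean and SD beside the points (n = 3) and library 2 of each group as a filled square. MAGOHB separates the groups widely, MAGOH does not, and MagoHB KD 2 is the lowest KD library for MAGOHB, MAGOH, RBM8A and EIF4A3.

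Of 22382 genes tested, 10193 (45.5%) were called at an adjusted p under 0.05. The KD was higher for 5208 of them (23.3%) and lower for 4985 (22.3%). Changes of at least 2-fold were mostly rises, with 1875 genes higher (8.38%) and 693 lower (3.1%), together 11.5% of genes tested. The median log2 fold change of all genes was 0.04, and with total counts alone as scaling it was 0.25, a shift of 0.21. On that scaling 8220 genes were called higher (36.7%) and 2789 lower (12.5%), 49.2% in all, so the share of calls that were higher was 74.7%, against 51.1% with TMM. Small falls of several lists turned into small rises under total counts, and those counts are given beside each such list described here.

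**Figure D2:**
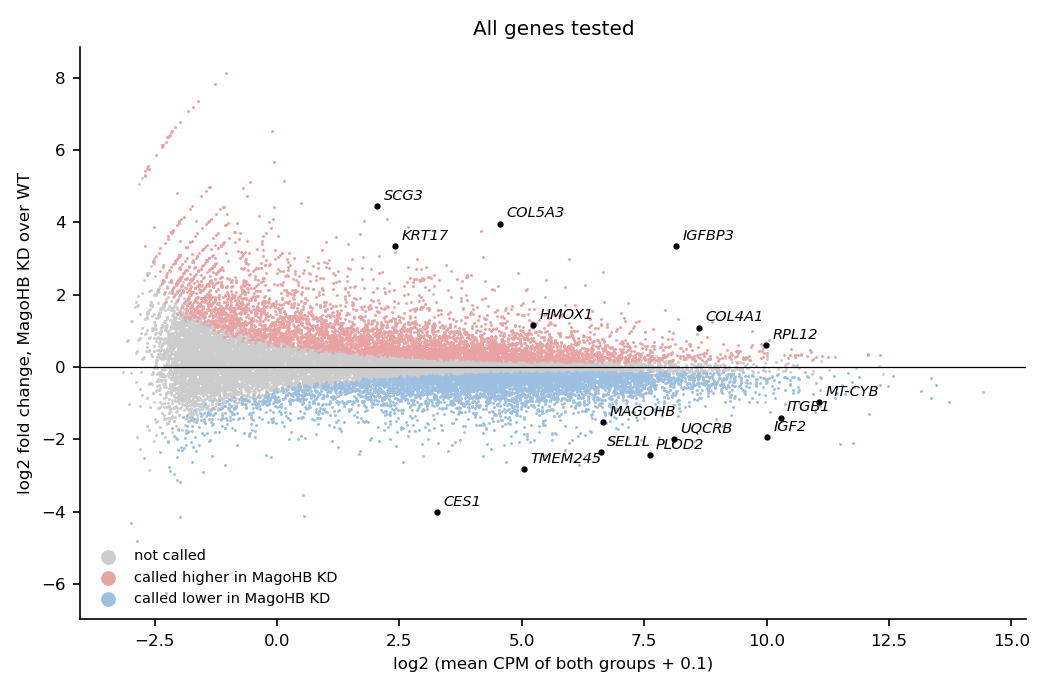
Log2 fold change of MagoHB KD over WT against log2 of the mean CPM plus 0.1, for the 22382 genes tested, with called genes in colour and named genes marked. IGFBP3 and COL5A3 stand out among rises of well-counted genes, and PLOD2, UQCRB, IGF2 and ITGB1 among falls.

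Library totals were 41139464 to 51406431 counts in the KD and 47383930 to 48482897 in WT. Mitochondrially encoded genes took 7.26% to 7.51% of KD counts and 9.84% to 10.3% of WT counts. Marker sums were taken as CPM of the library totals, without TMM factors, unlike the other CPM values. All 10 A549 markers were detected, at summed levels of 10556 to 10883 CPM in the KD and 12817 to 13596 CPM in WT. Summed fibroblast markers were at 48.2 to 63.1 CPM in the KD and 36.4 to 59 CPM in WT, and of these 7 genes none was called. Leukocyte markers summed to 78.4 to 150 CPM in the KD and 86 to 93.7 CPM in WT, where CD3E was at 0, and endothelial markers stayed between 0.292 and 0.7 CPM in the KD and between 0.375 and 0.639 CPM in WT.

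MagoHB KD 2 stood apart from the other KD libraries. The chi-square per degree of freedom between libraries was 64.9 for KD 2 against KD 1 and 45.6 against KD 3, but 5.39 between KD 1 and KD 3 and 3.09 to 4.5 between WT libraries. In the fit without KD 2, 8958 of 22880 genes were called (39.2%), with 18.9% higher and 20.2% lower. Leaving out WT 1, 2 or 3 instead gave 8912, 8954 and 8922, and leaving out KD 1 or KD 3 gave 10387 and 9544. The count thus varied with the library left out, and the reason was not tested. With only the libraries compared, 8316 genes were called with KD 2 and 10117 without it. The calls shared by both fits numbered 8297, which is 81.4% of the calls with all libraries and 92.6% of those without KD 2, and 0 of them changed sign. KD 2 mostly went further in the same direction. Among 4313 genes called higher without it, KD 2 lay on the same side of the WT mean for 96.2% and was the furthest of the KD libraries for 60.1%. Among 4622 genes called lower, the shares were 95.3% and 58.7%. The median log2 differences from WT of the higher genes were 0.58, 0.76 and 0.63 in KD 1, 2 and 3, and those of the lower genes were -0.44, -0.59 and -0.49.

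**Figure D3:**
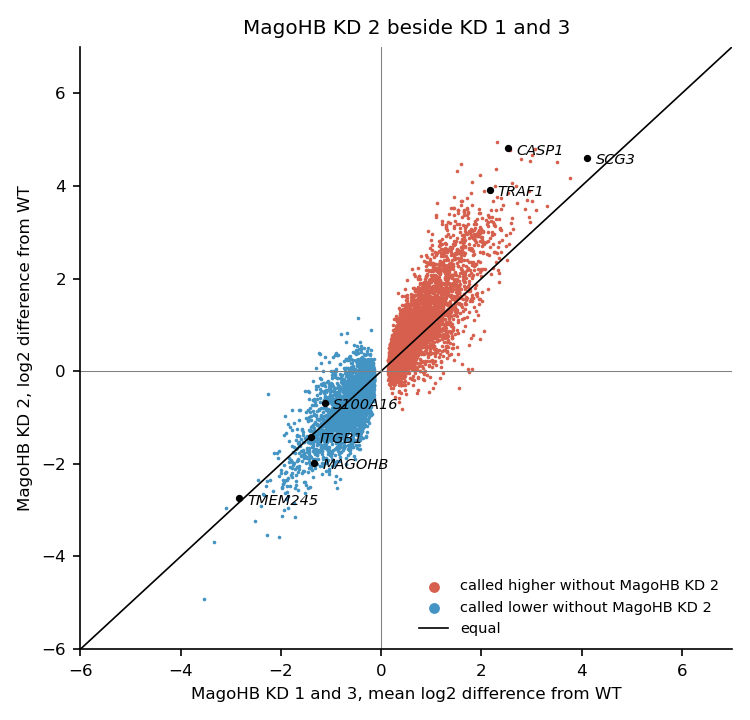
Log2 difference from the WT mean in MagoHB KD 2 (vertical axis) against the mean of MagoHB KD 1 and 3 (horizontal axis), for genes called without MagoHB KD 2. Most points lie on the same side of WT in all KD libraries, CASP1 and TRAF1 lie above the line of equal change, and ITGB1 and TMEM245 lie on it.

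The named genes fell into genes at nearly equal levels in all KD libraries and genes graded with KD 2. ITGB1, the beta-1 chain of integrin receptors for matrix proteins, was at 690, 684 and 684 CPM in the KD and at 1809, 1821 and 1819 CPM in WT. It fell to 37.8% of WT (log2 -1.40 ± 0.05, adjusted p = 1.9e-15), and KD 2 was no lower than KD 3. TMEM245, a membrane protein gene that hosts a microRNA, was at 8.06, 8.56 and 7.99 CPM in the KD and at 59.3, 57.9 and 56.9 CPM in WT (log2 -2.82, adjusted p = 2.23e-17). PLOD2, a lysyl hydroxylase that modifies collagen for cross-linking, was at 59, 64.1 and 60.6 CPM in the KD and at 329, 322 and 338 CPM in WT (log2 -2.43, adjusted p = 9.47e-16). For these genes the ratio of KD 2 to the mean of KD 1 and KD 3 was 1.07 for both TMEM245 and PLOD2.

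EGFR, the epidermal growth factor receptor, was equally even, at 75.3, 75.5 and 77.2 CPM in the KD and 171, 169 and 173 CPM in WT (log2 -1.17, adjusted p = 6.59e-13). RFK, riboflavin kinase, fell to 3.79, 3.51 and 3.73 CPM in the KD, against 18.1, 18.4 and 19.2 CPM in WT (log2 -2.34, adjusted p = 9.78e-15). KD 2 did not stand out for either gene, and the groups were far apart.

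Other strong falls were partly graded. SEL1L, an adaptor of endoplasmic reticulum-associated degradation, was at 35.5, 29.4 and 31.2 CPM in the KD and at 165, 171 and 155 CPM in WT (log2 -2.35, adjusted p = 3.28e-13). UQCRB, a subunit of respiratory complex III, was at 126, 98.4 and 111 CPM in the KD and at 451, 443 and 436 CPM in WT (log2 -1.98, adjusted p = 5.19e-15). EFR3A, which anchors a phosphatidylinositol kinase at the plasma membrane, was at 16.2, 11.6 and 13.6 CPM in the KD and at 74.6, 75.9 and 74.7 CPM in WT (log2 -2.44, adjusted p = 1.03e-14). In each of the 3 genes KD 2 was the lowest library and the groups did not overlap.

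CES1, a carboxylesterase of drug and lipid metabolism, had the largest fall among the named genes. It was at 1.61, 0.496 and 1.29 CPM in the KD and at 17.8, 17.3 and 18.6 CPM in WT (log2 -4.02, adjusted p = 1.09e-10). PALM3, ST6GAL2, MSMO1, CMTM4, PLCXD3 and CCR6 completed the 12 lowest, with log2 changes of -2.72, -2.63, -2.63, -2.47, -2.40 and -2.33. CCR6 shares 71.2% of its exonic length with another annotated gene, so its counts are uncertain.

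Among the rises, SCG3, a secretory granule protein of neuroendocrine cells, had the largest log2 change of the named genes. It was at 5.93, 9.48 and 7.68 CPM in the KD and at 0.596, 0.0909 and 0.364 CPM in WT (log2 4.45 ± 0.31, adjusted p = 4.88e-10). IGFBP3, a secreted binding protein of insulin-like growth factors, was at 343, 763 and 449 CPM in the KD and at 48.5, 50.4 and 54.4 CPM in WT (log2 3.34, adjusted p = 8.2e-08). COL5A3, a fibrillar collagen chain, was at 31, 66.2 and 34.5 CPM in the KD and at 3.62, 2.59 and 2.28 CPM in WT (log2 3.96, adjusted p = 3.24e-06). All KD libraries exceeded all WT libraries, and KD 2 was the highest for each.

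KLHDC7A, KRT17 and CFI were also among the largest rises. KD 2 was 1.31, 1.73 and 1.16 times the mean of the other KD libraries for them, and 1.39 times for SCG3. KRT17, a keratin of basal and stressed epithelium, was at 8.04, 13.2 and 7.22 CPM in the KD and at 0.733, 1.07 and 1 CPM in WT (log2 3.34, adjusted p = 2.02e-10). CFI, a protease that inactivates complement C3b, was at 4.32, 6.4 and 6.76 CPM in the KD and at 0.504, 0.5 and 0.364 CPM in WT (log2 3.67, adjusted p = 7.92e-10).

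CASP1, the protease that activates interleukin-1 beta, showed the gradation most clearly. It was at 2.09, 13.3 and 3.36 CPM in the KD and at 0.458, 0.364 and 0.319 CPM in WT (log2 4.04, adjusted p = 0.000318; without KD 2 2.84, adjusted p = 3.34e-07). KD 2 was 4.87 times the mean of the other KD libraries, and this ratio was 3.35 for GBP5, 3.33 for TRAF1, 2.9 for RSAD2 and 2.09 for RUFY4. All of these were still called without KD 2.

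**Figure D4:**
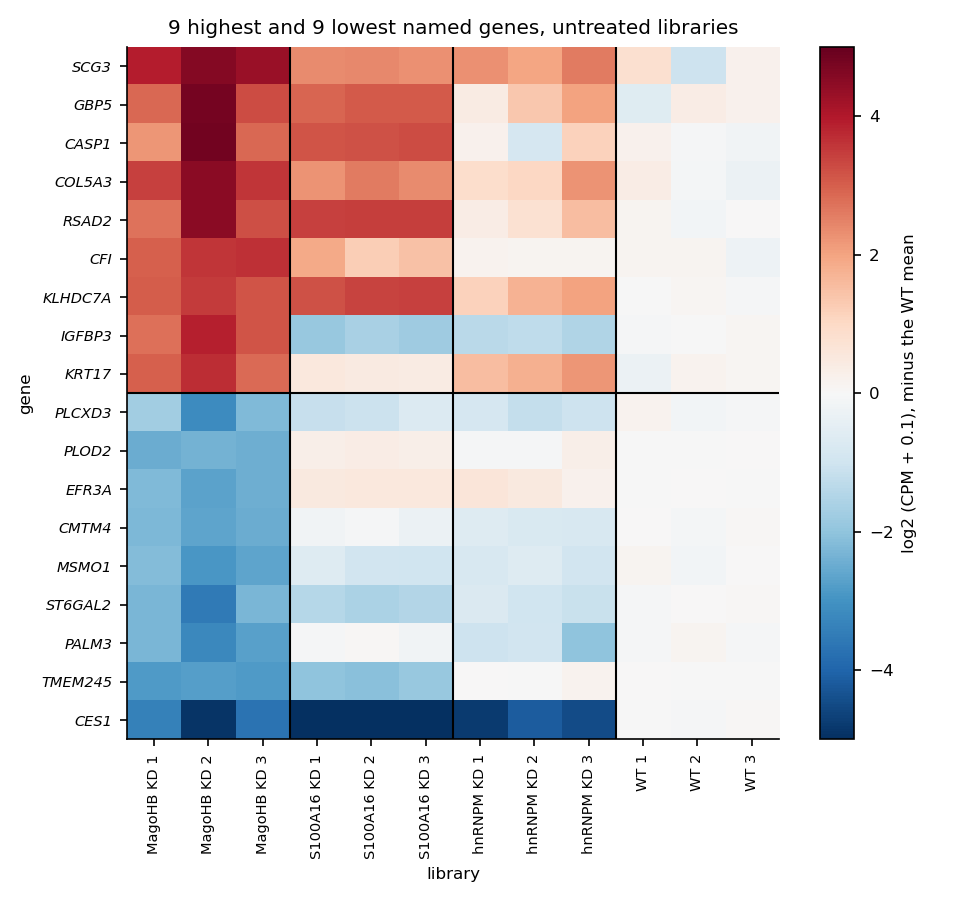
Log2 of CPM plus 0.1, minus the WT mean, for the 9 highest and 9 lowest named genes (vertical axis) in the untreated libraries (horizontal axis: MagoHB KD, S100A16 KD, hnRNPM KD, WT). IGFBP3 is high and EFR3A and PLOD2 are low in the MagoHB KD libraries alone, CES1 is low in every KD library, and RSAD2 and KLHDC7A are also high in the S100A16 KD.

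Gene lists were described by the members called in each direction and by their median, beside the protein-coding background of 26.3% called higher and 28.1% called lower among 14117 genes (54.4% in all), with a median of 0. Genes of the cell division cycle were mostly lower. Of 55 mitosis and G2/M genes, 0 were called higher and 45 lower (81.8%; median log2 -0.65), and without KD 2 the count was 1 higher and 41 lower (median -0.43). AURKA, a spindle kinase, was at 35.3, 18.3 and 31.7 CPM in the KD and at 71.4, 72.6 and 74.1 CPM in WT (log2 -1.36, adjusted p = 5.34e-05). ANLN and ECT2, which act in cytokinesis, fell by 0.96 and 0.60. In bulk RNA, fewer dividing cells and less of these mRNAs per cell cannot be told apart.

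Of 42 DNA replication and G1/S genes, 1 was called higher and 16 lower (median -0.32), and without KD 2 it was 4 higher and 13 lower (median -0.11). Under total counts 2 were higher and 9 lower. The median differences from WT were -0.07, -0.80 and -0.13 in KD 1, 2 and 3, so KD 2 carried most of the fall. GINS1 and POLE2, parts of the replication machinery, fell by 0.89 and 0.87, and were still called without KD 2. CDC25A, a phosphatase that starts S phase, rose by 0.37 (adjusted p = 0.0249; alternatives from 1.87e-09 to 0.135).

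Lipid synthesis genes fell broadly. Of 33 sterol and fatty acid synthesis genes, 0 were called higher and 28 lower (84.8%; median -0.70), and without KD 2 it was 1 and 28 (median -0.51). MSMO1, a sterol demethylase, was at 2.16, 1.24 and 1.54 CPM in the KD and at 10.9, 9.14 and 10.1 CPM in WT (log2 -2.63, adjusted p = 1.43e-11). MVD, of the mevalonate pathway, fell by 1.27 and NSDHL by 1.09. FASN, fatty acid synthase, picked after its values were seen, was also lower, by 1.24 (adjusted p = 4.43e-05).

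Mitochondrially encoded mRNAs were lower as a block, with 0 of 13 called higher and 12 lower (92.3%; median -0.71, and -0.66 without KD 2). MT-CYB, the cytochrome b of complex III, was at 1473, 1402 and 1501 CPM in the KD and at 2876, 2900 and 2762 CPM in WT (log2 -0.96, adjusted p = 2.12e-12). Nuclear genes of oxidative phosphorylation moved less, with 2 of 62 higher and 27 lower (median -0.17). Under total counts their median was 0.04, with 19 higher and 12 lower, so that direction depends on the scaling. UQCRB stood far below the rest of the nuclear list, whose members SDHC and COX4I1 fell by 0.58 and 0.74.

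Protein quality control genes were lower by small amounts. Of 31 proteasome genes 0 were called higher and 29 lower (93.5%; median -0.41; 28 lower without KD 2, and 18 under total counts). PSMA7, a core particle subunit, was at 139, 106 and 126 CPM in the KD and at 209, 211 and 206 CPM in WT. Of 20 heat shock chaperone genes 1 was called higher and 17 lower (median -0.30; 13 lower without KD 2 and 8 under total counts). CHORDC1, a co-chaperone of HSP90, fell by 1.41 (adjusted p = 1.27e-11), whereas CRYAB, a small heat shock protein, rose by 2.46 (adjusted p = 7.05e-05). The protein phosphatase 2A list had 3 of 17 higher and 10 lower (median -0.32), but 6 higher and 7 lower under total counts (median -0.11). Its regulatory subunit gene STRN3 was at -1.22.

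Genes of the NRF2 programme, high in A549 cells, were partly lower. Of 25 NRF2 target and glutathione genes 4 were called higher and 18 lower (median -0.45; 17 lower without KD 2 and 12 under total counts). TKT, the transketolase of the pentose phosphate pathway, was at 476, 321 and 448 CPM in the KD and at 691, 670 and 677 CPM in WT (log2 -0.71, adjusted p = 2.38e-06). HMOX1, heme oxygenase 1, went against the list, at 49.9, 51.1 and 54.2 CPM in the KD and 22, 23.5 and 24.5 CPM in WT (log2 1.15, adjusted p = 1.9e-11). Of 17 aldo-keto reductase and aldehyde dehydrogenase genes 1 was higher and 12 lower (median -0.43), with ALDH3A1 at -1.22 and AKR1B1 at 0.77 (0.48 without KD 2). Among A549 markers, AKR1B10 fell by 1.23 and NQO1 by 1.24, and 0 of 10 were higher and 6 lower.

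Splicing genes, the neighbours of the exon junction complex in function, were lower in part. Of 51 core spliceosome genes 1 was called higher and 31 lower (60.8%; median -0.25). Without KD 2 it was 3 and 24, and under total counts 9 and 20 (median -0.04). PRPF4, of the U4/U6 particle, was at 76.9, 62.1 and 73.7 CPM in the KD and at 150, 148 and 148 CPM in WT (log2 -1.07, adjusted p = 3.22e-11). PRPF3, its partner, fell by 0.63 with even KD levels, and LSM8, of the U6 ring, rose by 0.61. The SR protein and splicing kinase list had 0 of 24 higher and 9 lower (median -0.11), and under total counts 8 higher and 4 lower. The hnRNP list had 4 of 28 higher and 12 lower (median -0.18), and under total counts 9 higher and 7 lower, so both directions depend on the scaling.

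The split of calls among peripheral exon junction factors and decay factors depended on the scaling. Of 18 peripheral genes 3 were called higher and 6 lower (median -0.09; 7 higher and 2 lower under total counts). THOC2, of the mRNA export complex TREX, fell by 0.64, SAP18, of the ASAP complex, by 0.52, and PYM1, which takes exon junction complexes off mRNA, rose by 0.51 (55, 54.9 and 52.8 CPM in the KD, 39.6, 38.6 and 36.3 CPM in WT). Of 20 nonsense-mediated decay factors 6 were called higher and 5 lower (median 0.06), against 12 higher and 1 lower under total counts (median 0.27) and 4 and 5 without KD 2. UPF3A, a paralog of the adaptor that binds the complex, was at 390, 385 and 371 CPM in the KD and 278, 273 and 260 CPM in WT (log2 0.50, adjusted p = 8.59e-07). GSPT1, a translation release factor, fell by 0.56.

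RNAs known to be sensitive to decay leaned upward, at 14 of 30 higher and 5 lower (median 0.25; 14 and 4 without KD 2), beside the background of 26.3% higher. ZFAS1, a snoRNA host RNA, was at 136, 207 and 139 CPM in the KD and 80, 81.5 and 82.2 CPM in WT (log2 0.98, adjusted p = 1.92e-06). GAS5, another snoRNA host, rose by 0.47 and RPL12 by 0.59, whereas UPP1, uridine phosphorylase, fell by 0.56. Counts per gene do not separate spliced forms, so retained introns and premature stops were not analysed here.

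Cytosolic ribosomal protein genes rose by small, even amounts. Of 75 genes 56 were called higher and 0 lower (74.7%; median 0.26), and without KD 2 it was 61 and 0 with the same median. The median differences from WT were 0.27, 0.25 and 0.26 in KD 1, 2 and 3. RPS27 was at 285, 313 and 287 CPM in the KD and at 169, 162 and 172 CPM in WT (log2 0.82, adjusted p = 4.49e-10). Many of these genes have processed pseudogenes, so their counts are uncertain.

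The interferon and NF-kB lists had the highest medians of all lists. Of 48 tested interferon-stimulated genes 37 were called higher and 3 lower (77.1% and 6.25%; median 0.94), and without KD 2 it was 32 and 3 (median 0.65). RSAD2, the antiviral protein viperin, was at 16.5, 58.8 and 24 CPM in the KD and at 2.68, 2.23 and 2.46 CPM in WT (log2 3.76, adjusted p = 1.69e-05). USP18, a negative regulator of interferon signalling, was evenly higher, at 20.8, 21.7 and 20.2 CPM in the KD and 15.2, 12.9 and 12.3 CPM in WT. OAS1, a sensor of double-stranded RNA, fell instead, to 47.6, 50.5 and 47.1 CPM in the KD, against 101, 99 and 94.2 CPM in WT (log2 -1.02, adjusted p = 1.43e-11). IFITM2 (-0.71), which has near-identical neighbours, and EIF2AK2 (-0.24) were the other two lower.

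The letters GAAACNG, part of the interferon-stimulated response element, were searched on both strands in RefSeq promoter windows of 300 bases (GRCh38.p14). They stood in 15.7% of 35116 windows. Of the 29 interferon genes called higher with a window, 17 held them (58.6%), and of the 6 tested and not called 5 did. The windows of RSAD2 and OAS1 did not hold these letters, which says nothing of the factor. The 4 called genes with the largest rises whose windows held them are shown, 60 bases each in the direction of the gene with the match in capitals. The motif and genes were chosen after the values were seen.
SAMD9L (chr7:93148505-93148564, minus strand): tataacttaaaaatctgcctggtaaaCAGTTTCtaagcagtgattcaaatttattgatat
GBP3 (chr1:89022828-89022887, minus strand): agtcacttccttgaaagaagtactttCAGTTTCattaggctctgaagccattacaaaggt
GBP1 (chr1:89065299-89065358, minus strand): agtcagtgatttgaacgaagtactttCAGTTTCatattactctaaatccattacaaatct
SAMD9 (chr7:93118082-93118141, minus strand): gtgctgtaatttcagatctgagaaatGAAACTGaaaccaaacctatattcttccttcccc

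The 4 genes shown rose by 2.23 (SAMD9L), 1.89 (GBP3), 1.53 (GBP1) and 1.35 (SAMD9) on the log2 scale, with adjusted p of 0.000477, 0.00176, 0.00177 and 0.00103. Without KD 2 the rises of GBP3 and GBP1 were 1.18 and 0.97. They encode interferon-induced restriction factors (SAMD9L, SAMD9) and guanylate-binding proteins (GBP3, GBP1). Genes of MHC class I presentation followed, with 14 of 17 called higher and 0 lower (median 0.48; 11 without KD 2). HLA-F, a non-classical class I chain, rose by 1.46 and PSMB9, an immunoproteasome subunit, by 1.25. The NF-kB and inflammatory list had 17 of 27 higher and 2 lower (median 1.12), against 12 and 2 without KD 2 (median 0.57). IL32, an inflammatory cytokine, was at 12.5, 36.7 and 19.6 CPM in the KD and at 3.67, 4.55 and 5.1 CPM in WT (log2 2.38, adjusted p = 0.000114). PTGS2, the inducible cyclooxygenase, fell by 1.07 (adjusted p = 5.74e-10).

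Stress and growth regulators were graded in the same way. Of 30 immediate early genes 16 were called higher and 2 lower (median 0.53), and without KD 2 it was 11 and 3 (median 0.21). JUN, a subunit of the AP-1 factor, was at 57, 143 and 68.9 CPM in the KD and at 28.7, 26.3 and 27.8 CPM in WT (log2 1.70, adjusted p = 0.000226). FOS, its partner, was lower by 0.58 (adjusted p = 0.0171, alternatives from 0.000128 to 0.103). It was not graded, at 4.79, 4.57 and 5.1 CPM in the KD and 6.78, 7.5 and 7.28 CPM in WT. Its call was lost in the fit of all libraries but KD 2 (adjusted p = 0.0863). Of 28 p53 targets 18 were higher and 2 lower (12 and 5 without KD 2), with FDXR at 0.60 and XPC at -0.31. CDKN1A, the best known p53 target, gave 0.51 with an adjusted p of 0.129. The BCL2 family, which sets the threshold of apoptosis, had 8 of 15 higher and 2 lower, with the survival gene BCL2L1 at 0.69 and the death agonist BID at -0.83.

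YAP and TEAD targets, which respond to cell tension, had 19 of 26 higher and 5 lower (median 0.48; 14 and 6 without KD 2). AMOTL2 was at 125, 163 and 137 CPM in the KD and at 59, 56 and 54.6 CPM in WT (log2 1.32, adjusted p = 1.11e-11), and WWC1, of the Hippo pathway, rose by 1.07. Of 29 collagen and collagen-modifying genes 17 were higher and 3 lower (median 0.64; 16 and 3 without KD 2). COL4A1, of basement membrane, was at 453, 654 and 495 CPM in the KD and at 252, 246 and 257 CPM in WT (log2 1.09, adjusted p = 2.2e-08). PLOD2 was 1 of the 3 lower members. Of 29 integrin and laminin genes 13 were higher and 5 lower (median 0.28), but without KD 2 it was 8 and 7 (median 0.19). AGRN was at 0.78 and ITGB1 at -1.40.

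The activin, TGF-beta and BMP list had 15 of 30 higher and 6 lower (median 0.42), with LTBP3 at 0.67 and TGFB1 itself at -0.79. The EGF receptor family had 5 of 19 higher and 7 lower (median -0.09). Without KD 2 it was 3 and 10 (median -0.32), and under total counts 5 and 5 (median 0.12). Its ligand EREG was at 12.8, 17.4 and 10.2 CPM in the KD and at 41.3, 39 and 41.2 CPM in WT (log2 -1.58, adjusted p = 1.15e-08), and its inhibitor ERRFI1 fell by 1.17. The ligand TGFA was at 1.99, 5.64 and 2.47 CPM in the KD and at 1.37, 1.05 and 0.774 CPM in WT (log2 1.67, adjusted p = 0.000876), with KD 2 far above the others. Without KD 2 its log2 change was 1.07 (adjusted p = 0.00135). The caveolae coat list had 0 of 6 higher and 5 lower (1 and 2 under total counts), and CAV1, its main structural protein, was at 96, 85.2 and 88.7 CPM in the KD and 206, 216 and 220 CPM in WT.

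Epithelial genes had 5 of 28 called higher and 9 lower (median -0.17), but 8 higher and 6 lower under total counts (median 0.04). Mesenchymal genes had 8 of 23 higher and 5 lower (median 0.01), and 6 in each direction without KD 2 (median -0.08). JUP, junctional plakoglobin, fell by 0.91, MUC1, a surface mucin, rose by 1.76, ZEB1, a repressor of epithelial genes, rose by 1.18 and ACTA2, smooth muscle actin, by 1.69. MUC5AC, a secreted airway mucin, was at 115, 61.1 and 100 CPM in the KD and at 381, 385 and 299 CPM in WT (log2 -1.94, adjusted p = 1.25e-05). Of 12 imprinted genes 6 were higher and 3 lower. The noncoding RNA MEG3 was at 59, 189 and 80.5 CPM in the KD and at 12.2, 15.5 and 14.1 CPM in WT (log2 2.98, adjusted p = 4.06e-05). IGF2, insulin-like growth factor 2, was at 389, 486 and 401 CPM in the KD and at 1449, 1413 and 2054 CPM in WT (log2 -1.95, adjusted p = 1.1e-08), with WT 3 the highest.

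Glycolysis and hypoxia genes had 16 of 37 higher and 7 lower (43.2% and 18.9%; median 0.16), and 17 and 8 without KD 2 (median 0.22). Among the remaining lists the direction mostly depended on the scaling. The endoplasmic reticulum unfolded protein response had 7 of 26 higher and 11 lower (median -0.11), and under total counts 10 and 6 (median 0.10), with PPP1R15A, a phosphatase subunit, at 1.32 and EDEM1, of glycoprotein degradation, at -1.13. The ATF4 and amino acid list had 11 of 38 higher and 15 lower (median 0.03), 7 and 16 without KD 2 (median -0.14), and 16 and 7 under total counts (median 0.24). Lysosome and autophagy genes had 9 of 30 higher and 8 lower, 7 and 8 without KD 2, and 14 and 4 under total counts. The Wnt pathway had 8 of 30 in each direction (median -0.04), and 12 higher and 4 lower under total counts (median 0.17), with the feedback inhibitor AXIN2 at 1.72 and the secreted inhibitor DKK1 at -1.16. Hepatic-type and complement genes had 9 of 37 higher and 11 lower (median -0.18), and 11 and 8 under total counts (median 0.03). The S100 family had 2 of 13 higher and 5 lower (median -0.16), and 3 and 4 under total counts (median 0.05). S100A16, the calcium-binding protein targeted elsewhere in the series, fell to 52.1, 73.5 and 56.3 CPM in the MagoHB KD, against 116, 120 and 119 CPM in WT. KD 2, lowest for MAGOHB, was the highest KD library for S100A16.

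**Figure D5:**
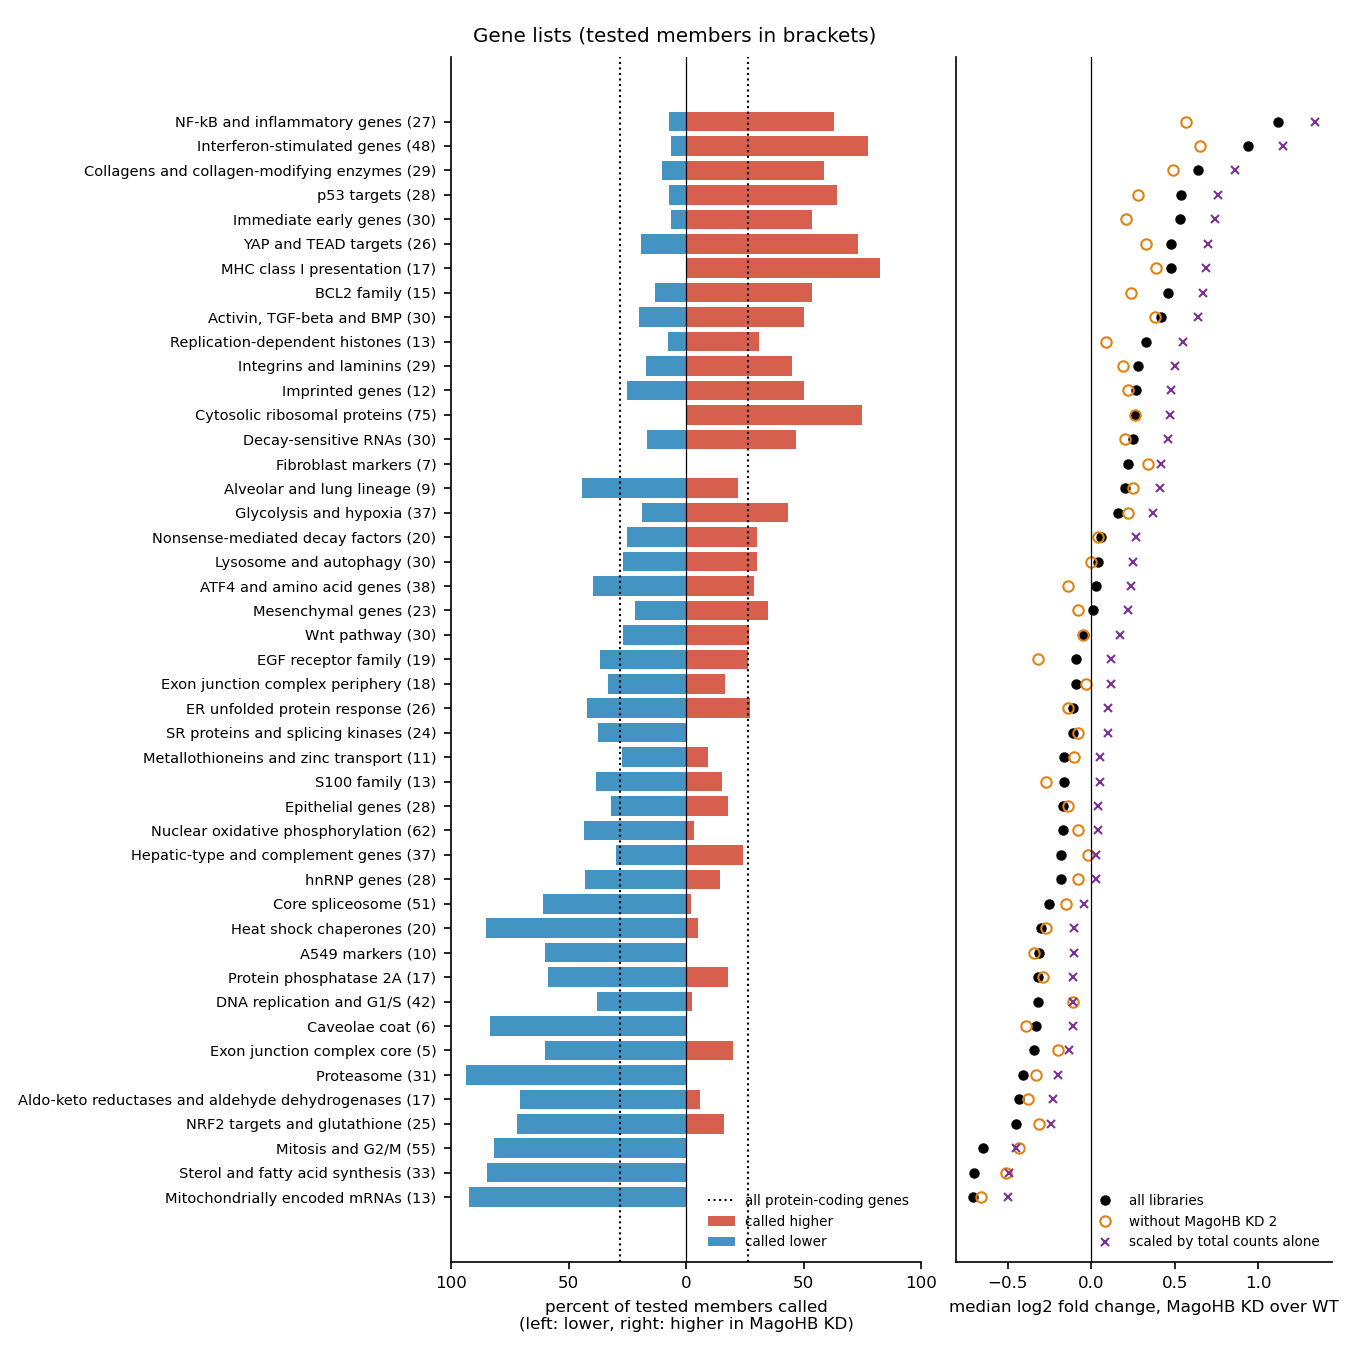
Left, percent of tested members of each list called lower (blue) and higher (red) in MagoHB KD over WT, with dotted lines at 28.1% lower and 26.3% higher for all protein-coding genes; right, median log2 fold change with all libraries, without MagoHB KD 2 and with total counts alone. Mitosis, sterol, proteasome and mitochondrial lists sit at the bottom, NF-kB and interferon lists at the top, and leaving out MagoHB KD 2 brings most of these medians nearer 0.

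By number of exonic blocks, the median log2 change of protein-coding genes lay between -0.03 (11 to 20 blocks) and 0.21 (51 or more, 189 genes). Of these 189 genes 41.3% were called higher and 16.4% lower, and their median without KD 2 was 0.14. Single-block genes, whose annotated exons merge into 1 block, had a median of 0.07, with 25.3% of 348 called higher and 21.6% lower. Merging exons can hide a junction, so these genes need not lack one. By chromosome, the medians lay between -0.07 on chromosome 4 and 0.13 on chromosome 15, except for -0.73 among 37 mitochondrial genes. LincRNAs had a median of 0.30, with 28.9% of 305 called higher and 7.87% lower.

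Direct contrasts asked where the MagoHB KD differed from the other untreated KDs, with no WT library in the contrast. Against the S100A16 KD 21.7% of genes were called higher and 23.2% lower (44.8% in all), and against the hnRNPM KD 22.2% and 22.3% (44.5% in all). S100A16 KD 1 and hnRNPM KD 3 also stood apart from their replicates (chi-square per degree of freedom from 30 to 37.7), so each value was repeated without them. MAGOHB mRNA was lower in the MagoHB KD than in the S100A16 KD (97.6, 100 and 94.2 CPM there; log2 -0.90, adjusted p = 5.67e-05). Against the hnRNPM KD (76.9, 67.9 and 54.5 CPM) the difference was -0.35 (adjusted p = 0.0505). It was -0.16 without MagoHB KD 2 (adjusted p = 0.144) and -0.48 without hnRNPM KD 3 (adjusted p = 0.0125).

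Several named genes differed strongly from both other KDs. IGFBP3 stood at 343, 763 and 449 CPM in the MagoHB KD, against 13.6, 16.4 and 15 CPM in the S100A16 KD and 20, 21.4 and 17.9 CPM in the hnRNPM KD (log2 5.11, adjusted p = 1.37e-09, and 4.72, adjusted p = 3e-09). PLOD2 was at 59, 64.1 and 60.6 CPM in the MagoHB KD, against 409, 423 and 404 CPM in the S100A16 KD and 320, 313 and 405 CPM in the hnRNPM KD (log2 -2.75 and -2.50). EFR3A gave -2.96 and -2.89, ITGB1 -1.50 and -1.34, EGFR -1.41 and -1.36, UQCRB -1.61 and -2.20, MUC5AC -2.28 and -2.28, and IGF2 -1.57 and -1.73. The adjusted p of these 6 genes lay at or under 2.22e-06 in both contrasts. SCG3 gave 2.01 and 2.04, CFI 1.93 and 3.51. All of these calls held without MagoHB KD 2, without S100A16 KD 1 and without hnRNPM KD 3.

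For other genes the KDs differed in size or order. TMEM245 was at 14.4, 13.6 and 15.4 CPM in the S100A16 KD and at 58.5, 56.5 and 64.9 CPM in the hnRNPM KD, so the MagoHB KD lay below both (log2 -0.82, adjusted p = 2.48e-09, and -2.87, adjusted p = 5.3e-18). CAV1 was at 32.3, 33.9 and 32.1 CPM in the S100A16 KD and at 139, 133 and 147 CPM in the hnRNPM KD, which placed the MagoHB KD above the first and below the second (log2 1.46 and -0.63). HMOX1 was higher in the MagoHB KD than in either (log2 1.93 and 0.88). RSAD2, at 26.9, 27.8 and 28 CPM in the S100A16 KD, differed from it by 0.27 (adjusted p = 0.592).

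Some whole lists differed too. All 75 ribosomal protein genes were called higher in the MagoHB KD than in the S100A16 KD (median 0.81), and 52 were higher and 1 lower against the hnRNPM KD (median 0.19). All 13 mitochondrially encoded mRNAs were lower than in the hnRNPM KD (median -0.70), and 2 were higher and 7 lower than in the S100A16 KD (median -0.22; 2 and 5 without MagoHB KD 2). Of 25 NRF2 genes 20 were higher and 0 lower than in the hnRNPM KD (median 0.84), and 9 were higher and 10 lower than in the S100A16 KD (6 and 10 without S100A16 KD 1). Interferon genes were mostly below the S100A16 KD (2 of 48 higher, 33 lower, median -0.79) and above the hnRNPM KD (30 higher, 2 lower, median 0.61). Without MagoHB KD 2 the last count was 24 higher and 7 lower (median 0.42). Mitosis genes were higher than in the S100A16 KD for 22 of 55 and lower for 2, and without MagoHB KD 2 for 43 and 1. DNA replication and G1/S genes were higher than in the S100A16 KD for 31 of 42 and lower for 1 (median 0.59). Against the hnRNPM KD it was 22 and 2 (median 0.43). Decay-sensitive RNAs had 19 of 30 higher and 1 lower (median 0.42), and 18 and 1 (median 0.26). Core spliceosome genes had 28 of 51 higher and 2 lower (median 0.2), and 13 and 11 (median 0.01). Not every list that differed is given here. With all libraries, the proteasome, sterol and NF-kB lists differed little or in both directions. Proteasome medians were -0.01 against the S100A16 KD (3 higher, 8 lower) and -0.08 against the hnRNPM KD (5 higher, 11 lower). Sterol medians were -0.01 (12 higher, 11 lower) and -0.30 (7 higher, 16 lower). NF-kB medians were 0.01 and -0.16, and without MagoHB KD 2 -0.65 and -0.70.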

How the data were processed

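Poly(A) RNA was sequenced in 18 A549 libraries, 6 groups of 3. The deposited files, made by the authors, hold whole-number read counts and RPKM values per gene. RPKM equalled counts per exon length and total counts for 100% of 531539 values above 0 (relative tolerance 0.001). The submitters' processing notes list DESeq2 1.32.0, StringTie 2.1.4, SAMtools 1.15.1, HISAT2 2.2.1, FastQC 0.11.9 and build GRCh38. How reads were counted, on which annotation and with what use of strand is not stated in the sources used here, so overlapping, antisense and near-identical genes are uncertain. Odd values made up 18.6% to 22% of counts from 1 to 19, which would follow from counting each mate of a pair, and halved counts were an alternative.

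The tests used edgeR 4.0.16 in R 4.3.3 (robust quasi-likelihood F test, TMM, filterByExpr, 1 mean per group over all 18 libraries, 12 residual degrees of freedom). Benjamini-Hochberg adjustment ran over 22382 genes, with calls under 0.05. Levels are TMM-scaled CPM, except for the summed cell type markers. With 3 libraries against 3, an exact permutation test of 1 gene cannot go below 0.1, so none was used. In simulated data of 21906 genes, 50 well-counted genes were changed at each fold, far fewer than were called in the real data. Of these, 22% changed 1.25-fold, 84% changed 1.5-fold, 98% changed 2-fold and 100% changed 4-fold were recovered, with 12 unchanged genes called. Alternatives were DESeq2 1.42.0, RLE or total-count scaling, no filter, only the libraries compared, each library left out, a replicate block and halved counts.

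The rule for named genes took the exon junction core, S100A16 and HNRNPM. It took the 12 highest and 12 lowest called genes without overlap between groups and with at least 5 CPM in the higher group. From each list with at least 2 calls it took the 3 smallest adjusted p in the leading direction and 1 in the other. Some genes that the rule names are not reported here. Members, lists and this rule were chosen with earlier results of these data known. Gene types and transcripts came from GENCODE 29, symbols from a reference of current and older gene names, and overlaps from the exon coordinates deposited with the counts. RefSeq promoter windows (GRCh38.p14) matched 38 of 49 interferon genes.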

Additional observations from a re-analysis of the deposited data

How the results depend on the processing

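The count of genes called in MagoHB KD against WT was 10193, and 10342 by DESeq2, 10192 with RLE scaling, 9891 with no filter and 10084 with halved counts. With only the libraries compared it was 8316, and 10117 when MagoHB KD 2 was also left out. Leaving out 1 library at a time gave 8912 to 10387. Total counts alone as scaling gave 8220 genes called higher, against 5208, and 2789 called lower, against 4985; they turned MAGOH to 0.08 (adjusted p = 0.407), the only named gene whose sign changed. The contrasts with the S100A16 KD and hnRNPM KD called 10029 and 9963 genes, and 8785 to 10613 and 8793 to 10318 with 1 library left out.

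Same-numbered MagoHB KD and WT libraries did not deviate together (correlations of -0.007, -0.007 and 0.027), so the numbers do not pair the libraries. With a replicate block 9986 genes were called.

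Of 184 called named genes, 173 stayed called under each of 14 alternatives. EIF4A3, HNRNPM, FOS and MT1F lost their call without MagoHB KD 2 in the fit of all other libraries. With only the libraries compared and without MagoHB KD 2, 1 of 185 named genes lost its call. Of 141 list counts and medians, 71 moved beyond their limits under total counts, 19 without MagoHB KD 2 and 0 with a replicate block. In simulated data with 50 genes changed at each fold, 22% of those changed 1.25-fold were recovered. The real comparison called far more genes, which loosens the adjusted threshold, so this share does not measure what was missed in it.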
